A study of Mus musculus with 5 samples.

Results

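The cytosolic ribosomal protein genes are the genes named Rps (small subunit) and Rpl (large subunit) with a number, together with Rplp0, Rplp1, Rplp2 and Rpsa. They were chosen by symbol alone, and the rule found 85 of the 36529 genes listed in all 3 deposited tables. Of these, 31 encode small-subunit proteins, 46 encode large-subunit and stalk proteins, and 8 are named as paralogs of another member (Rpl3l, Rpl7l1, Rpl10l, Rpl22l1, Rpl39l, Rps4l, Rps12l2 and Rps27l). RefSeq annotates 2 of these, Rps4l and Rps12l2, as pseudogenes. Each of the 85 had at least 1 read in each of the 5 libraries.

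The study sequenced single cells from the pancreas of mice lacking the glucagon receptor gene Gcgr, by droplet capture of transcript 3' ends. There was 1 library of islet cells from Gcgr heterozygous mice, 1 of islet cells from Gcgr homozygous knockout mice, and 3 of tumor cells, also from Gcgr homozygous knockout mice. The 3 tumor libraries could not be matched to the labels' tumor numbers and are called tumor A, tumor B and tumor C. The cell labels of the tumor data give each of the 3 tumor libraries a different animal number. The age, sex and strain of the mice, and how many mice went into each islet library, are not stated in the sources used here. Spread between tumor libraries may hold more than spread between mice. Alpha cells, the glucagon-secreting islet cells, were taken from the authors' classification, and all cells of the tumor libraries were set beside them.

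A ribosome joins a small subunit, which reads the messenger RNA, and a large subunit, which forms the peptide bonds, and each subunit carries a fixed set of proteins around its RNA. Rplp0, Rplp1 and Rplp2 form the stalk that recruits elongation factors. Most ribosomal protein transcripts begin with a run of pyrimidines, the TOP motif, through which mTOR and the binding protein Larp1 control their translation. The paralogs named here are related copies of core genes, some of them used mainly in particular tissues. Islet endocrine cells devote much of their messenger RNA to a few hormones, so a share of all transcripts depends on how much hormone transcript is present.

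After removal of predicted doublets, 6594 cells remained, with 10086827 to 34091060 unique molecular identifiers (UMIs, 1 for each captured transcript) in a library and library medians between 10961 and 26092 UMIs for each cell. Gcgr had 137 UMIs in the heterozygous islet library, 0 in the homozygous islet library and 0 to 3 in each tumor library. Levels are in CPM, the UMIs of a gene for each 1000000 UMIs of the library or class; since each UMI is 1 captured 3' end, they are not divided by gene length. No cell name occurred in more than 1 library. Glucagon and the other alpha markers together took between 394044 and 427213 CPM in the 5 alpha-like libraries, and none of the 8 was at 0. Markers of beta cells summed to 55516 CPM in the alpha cells of the heterozygous islet, 11489 CPM in those of the homozygous islet and 4.36 to 3323 CPM in the tumors. In tumor A, 4 of the 8 beta markers were at 0. Markers of PP cells, the pancreatic polypeptide cells, summed to 16094 and 77336 CPM in the islet alpha cells and to 682 to 2435 CPM in the tumors. The part of these other cells' transcripts in the results was not tested. In the other islet classes, the class's own marker list was detected with at most 1 of its genes at 0, although in beta, PP and homozygous delta cells the alpha list was the highest once hormones were left out.

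The first bases of 6 members that the results turn on are shown here, because the TOP motif sits at the transcript start. They come from RefSeq (build GRCm38.p6) and run from 15 bases before the annotated start to 15 bases after it, with capitals marking a run of at least 8 pyrimidines. Rps27l lies on the plus strand (chr9:66946071-66946100), its parent gene Rps27 on the minus strand (chr3:90213634-90213663), Rpl38 on the plus strand (chr11:114668565-114668594), Rpl14 on the plus strand (chr9:120571502-120571531), Rps28 on the minus strand (chr17:33824548-33824577) and Rplp0 on the plus strand (chr5:115559452-115559481).
Rps27l: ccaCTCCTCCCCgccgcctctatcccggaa
Rps27: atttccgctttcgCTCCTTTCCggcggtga
Rpl38: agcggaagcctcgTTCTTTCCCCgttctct
Rpl14: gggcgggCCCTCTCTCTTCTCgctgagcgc
Rps28: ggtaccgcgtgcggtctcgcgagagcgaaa
Rplp0: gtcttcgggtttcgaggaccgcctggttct
Rps27l, Rps27, Rpl38 and Rpl14 held such a run in the window shown, and Rps28 and Rplp0 did not. The run crossed the annotated start in Rps27, Rpl38 and Rpl14, but lay wholly before it in Rps27l. Rps27l has a second annotated start (chr9:66946398-66946427), whose window held none. Over the 63 members with an entry in the promoter table, 49 (77.8%) had a run of at least 8 C or T letters on the transcribed strand between 30 bases before and 50 bases after an annotated start, against 32.3% of 27025 genes. The letters CCGGAAG, searched on both strands over the whole 300-base window, were present in 26 of the 63 (41.3%), against 9.93% of all genes. A match describes the letters only.

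Levels among the members were spread over a wide range. In alpha cells and tumor cells, 13 members averaged 1000 CPM or more over the 5 libraries, 53 lay between 100 and 1000 CPM, and 19 were below 100 CPM. The 10 members with the highest average supplied 47.8% of all member UMIs in the heterozygous islet alpha cells, 53.2% in the homozygous islet alpha cells, and 42.5%, 56.4% and 50.3% in tumors A, B and C. Rps14, a protein of the small subunit platform, came first at 2702 CPM in heterozygous and 2685 CPM in homozygous islet alpha cells, and at 2217, 4493 and 3024 CPM in tumors A, B and C. Rplp1, of the stalk, followed at 2729, 2402, 4172, 3675 and 2015 CPM in the same order of libraries. These 2 members changed places between libraries, with tumor B highest for Rps14 and tumor A highest for Rplp1. Rps19, known for its mutation in Diamond-Blackfan anemia, was at 2035, 1824, 2202, 2263 and 1757 CPM. Rpl32, Rpl8, Rpl13a, Rps21, Rpl4 and Rps9 were also among the first 10, with averages between 1670 and 1984 CPM. Among the core members, the lowest were Rpl7a and Rpl29, with averages of 46.1 and 45.4 CPM; 5 of the paralogs were lower still.

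Many members have processed pseudogenes whose sequence nearly matches the 3' end that this assay reads. Of the 85 members, 83 had a transcript in the GENCODE M21 annotation; a copy was counted where another gene's transcript matched at least 100 of a member's last 300 bases at 97% identity or more. Rps2 had 33 such copies, Rpl7a 28, Rpl29 20, Rpl17 17 and Rps12 15. Among the 77 core members, the 30 without a copy averaged 67.4 to 2197 CPM with a median of 313 CPM. The 27 with 1 to 4 copies had a median of 255 CPM, and the 20 with 5 or more copies a median of 159 CPM and a maximum of 368 CPM. None of these 20 reached 1000 CPM, against 6 of the 30 without a copy and 7 of the 27 with 1 to 4. Across these 77 genes Spearman's rho between copy number and level was -0.37, a description over genes read in the same 5 libraries. How the authors' counting treated reads that fit several places is not stated in the sources used here, so levels of members with copies are uncertain. Rows for 20 ribosomal pseudogenes (symbols with -ps) held between 3.22% and 5.18% as many UMIs as the members did in the 5 alpha-like libraries.

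**Figure D1:**
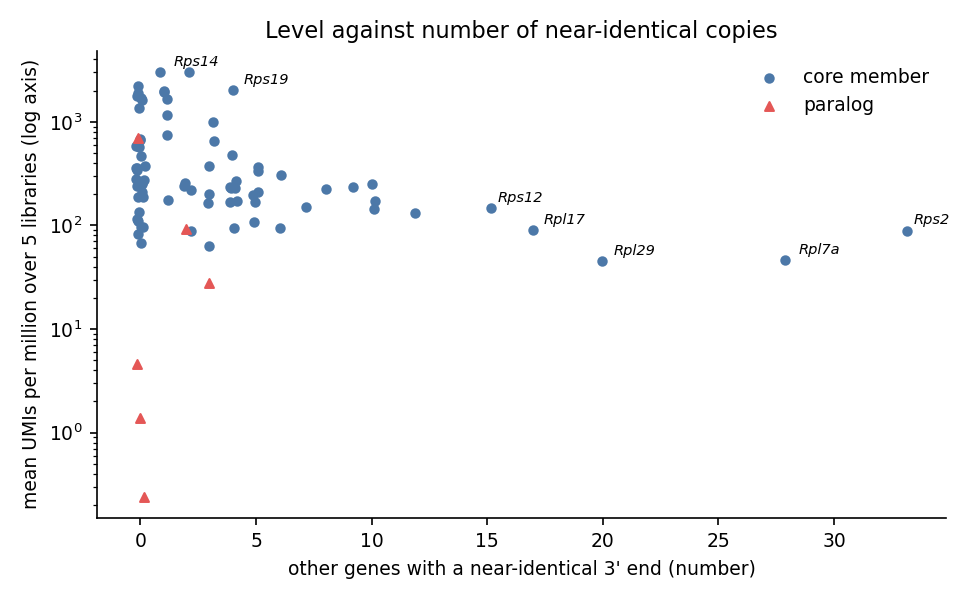
Mean level of each member over the 5 alpha-like libraries (CPM, log axis) against the number of other genes with a near-identical 3' end, with core members as circles and paralogs as triangles. Members with 5 or more copies lie at or below 368 CPM, whereas members with fewer copies reach 3024 CPM.

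As a share of all UMIs, the members took most in macrophages of the heterozygous islet and in tumor A, and least in beta cells; tumor C was below heterozygous alpha cells and the stellate cells of both islets. In the heterozygous islet library the pooled share was 7.20% in macrophages, 4.15% in alpha cells, 3.84% in stellate cells, 3.71% in endothelial cells, 2.78% in delta cells and 1.18% in beta cells. In the homozygous islet library it was 4.51% in the class that the authors left unnamed, 3.98% in stellate cells, 3.37% in alpha cells, 2.90% in endothelial cells, 2.12% in delta cells, 1.49% in PP cells and 1.13% in beta cells. In tumors A, B and C the members took 5.72%, 4.53% and 3.65%. The 8 hormone transcripts (Gcg, Ins1, Ins2, Iapp, Sst, Ppy, Pyy and Ghrl) held 71.1% and 70.7% of beta-cell UMIs in the 2 islet libraries, but 5.34% and 4.08% of endothelial UMIs.

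With the hormone transcripts left out of the total, the order changed. Heterozygous alpha cells stood at 7.30% (95% exact binomial interval 7.26 to 7.34) and homozygous alpha cells at 6.76% (6.75 to 6.78), the highest of the 5 types found in both islet libraries. Beta cells were then at 4.08% and 3.85%, delta cells at 4.61% and 4.54%, stellate cells at 4.07% and 4.16%, and endothelial cells at 3.92% and 3.02%. Macrophages stood at 7.76%, PP cells at 4.77%, and the class that the authors left unnamed, whose highest marker list was that of macrophages, at 4.81%. These intervals cover counting error only. Single cells varied more: the middle 50% of cells ran from 6.35% to 8.13% in heterozygous islet alpha cells and from 3.65% to 4.43% in beta cells of that library, so these 2 ranges did not overlap. The authors' 2 heterozygous beta clusters were close to each other, at 4.0% and 4.21%. The 2 large clusters of homozygous islet alpha cells differed with all UMIs in the total (3.74% and 2.74%), where hormones held 45.1% and 59.0% of UMIs. Their pooled shares nearly met without hormones (6.81% and 6.68%), but single members went both ways. Ratios of the first over the second cluster ran from 0.699 (Rpl7l1) to 1.32 (Rpl28) among members with at least 50 CPM.

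**Figure D2:**
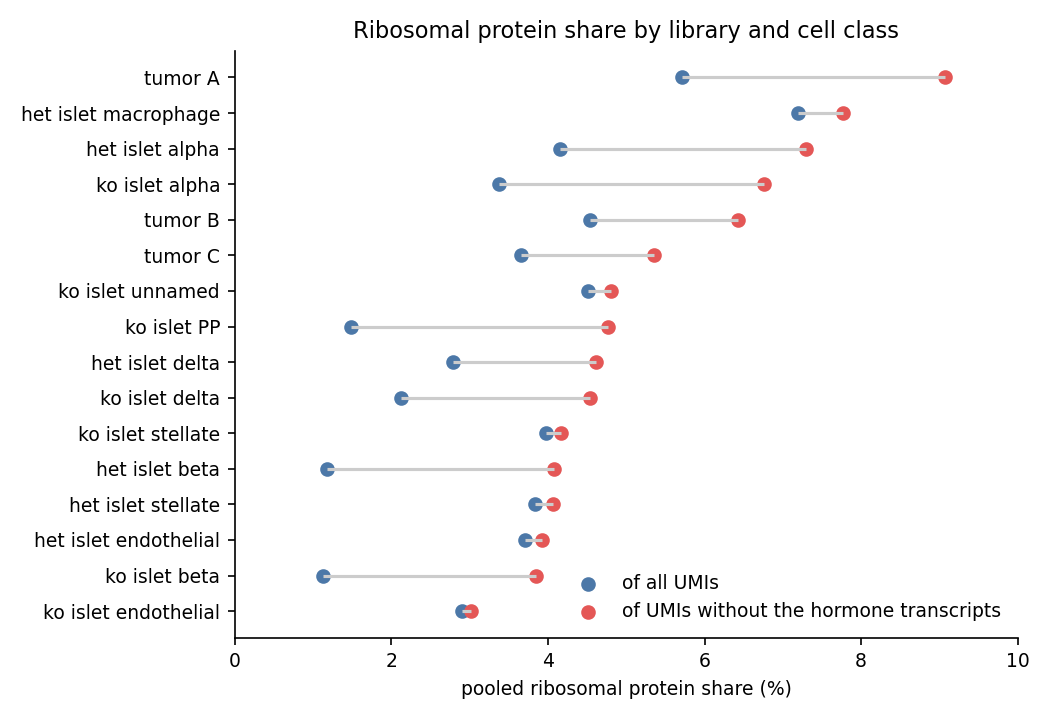
Pooled share of UMIs (%) from the 85 members in each library and cell class, of all UMIs (blue) and of UMIs without the 8 hormone transcripts (red), with a line joining the 2 values (het, heterozygous; ko, homozygous knockout). The 2 values lie far apart in beta, PP, delta and alpha cells and close together in endothelial and stellate cells; tumor A is highest without hormones, at 9.07%.

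The 2 subunits did not keep a fixed ratio. UMIs of core small-subunit members divided by those of core large-subunit members gave 0.907 and 0.886 in heterozygous and homozygous alpha cells, 0.881 and 0.897 in beta cells, 0.971 and 0.955 in delta cells, 1.02 and 1.14 in stellate cells, and 1.11 and 1.19 in endothelial cells. Endocrine cells were therefore below 1 and endothelial cells above 1 in both islet libraries. Stellate cells were above 1 too, but their heterozygous value is close to 1 and rests on 3454 member UMIs of 33 cells. No intervals were computed for these ratios. Tumor A had the lowest ratio, 0.789, while tumors B and C were at 0.967 and 0.942.

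Most members, like the pooled share without hormones, were highest in alpha cells among the types found in both islet libraries. Of the 81 members that reached 50 CPM in a type (totals without hormones), 76 were highest in alpha cells in the heterozygous and 77 in the homozygous islet library, among the 5 shared types. Highest and lowest types were not counted for all genes, so these counts cannot be read as particular to the members. The lowest type varied more: endothelial cells for 32 members and beta cells for 26 in the heterozygous library, and endothelial cells for 59 in the homozygous library. Of these 81, 13 had the same order of all 5 types in both libraries. The widest range among these 13 was that of Rpl38, a large-subunit protein known for its role in the translation of Hox transcripts. Rpl38 was at 1021 CPM in alpha, 836 CPM in beta, 690.2 CPM in delta, 306 CPM in stellate and 268 CPM in endothelial cells of the heterozygous islet. In the homozygous islet the same types were at 644, 476, 460.0, 176 and 110.5 CPM. Both libraries thus had Rpl38 highest in alpha cells and lowest in endothelial cells, with the homozygous value lower in each type. Rpl11, which can bind the p53 regulator Mdm2 when free of the ribosome, was at 522 CPM in alpha and 161 CPM in endothelial cells of the heterozygous islet, and at 407 and 129 CPM in those of the homozygous islet. Rpl10, which sits where the subunits meet, ranged from 550.3 to 171 CPM and from 346 to 110.5 CPM between the same 2 types. Rpl37a ranged from 1104 to 383 CPM and from 1275 to 322 CPM, and Rplp0, the base of the stalk, from 460.1 to 166 CPM and from 395 to 109 CPM.

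Between the genotypes, members were on balance lower in the homozygous than in the heterozygous islet library, most clearly in endothelial cells. With 1 library for each genotype there is no replicate check and no test, and intervals cover counting error only; the genotype and the library cannot be told apart. Without hormones in the totals, the pooled share in endothelial cells was 3.02% in the homozygous and 3.92% in the heterozygous library, a ratio of 0.771 (0.756 to 0.785). The ratio was 0.927 (0.921 to 0.932) in alpha cells, 0.944 (0.936 to 0.952) in beta cells, 0.984 (0.966 to 1.00) in delta cells and 1.02 (0.983 to 1.07) in stellate cells. With hormones in the totals the alpha ratio was 0.813 and the delta ratio 0.763.

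Among single members in endothelial cells, 52 of 80 with at least 50 CPM had a ratio whose counting interval lay below 1, and 1 (Rpl7l1) lay above 1. Over all 4430 genes at that level, 13.7% lay below 1 and 13.2% above 1. The median ratio of the 80 members was 0.734, against 0.971 for all genes. Endothelial cells had a median of 3587 UMIs in the heterozygous and 2061 UMIs in the homozygous library, and the part of this depth in the ratio was not tested. In alpha cells 52 of 81 members lay below 1 and 10 above 1, against 38.6% and 28.4% of 3541 genes, with medians of 0.823 and 0.944. In beta cells 42 of 80 lay below and 13 above, against 28.5% and 24.8% of genes. In delta cells 27 of 80 lay below and 11 above, against 16% and 13.5%. In stellate cells, the class with the fewest UMIs, 8 of 79 lay below and 6 above, against 6.27% of genes either way. With hormones in the totals, 65 of 79 alpha members lay below 1 and 3 above, against 52.8% and 23% of genes. On that scale 32 of 54 beta members lay below and 12 above (40.4% and 32.6% of genes), and 52 of 76 delta members below and 0 above (43.9% and 5.59%). In endothelial cells it was 47 of 79 below and 1 above (12.8% and 14.4%), and in stellate cells 7 of 79 below and 6 above (6.12% and 6.67%). The endothelial class thus had the widest gap between members and all genes on both scales. Immediate-early and heat-shock genes (16 genes such as Fos, Jun and Hspa1a, which respond to handling and stress) summed to 7980.1 CPM in heterozygous and 1676 CPM in homozygous alpha cells, to 4528 and 3038 CPM in beta cells, to 6256 and 3153 CPM in delta cells, to 17513 and 11064 CPM in stellate cells, and to 10735 and 10568 CPM in endothelial cells. Their part in the ratios was not tested.

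The 6 highest and 6 lowest alpha ratios are named here, on totals without hormones. Rps27l, a paralog of Rps27 known as a p53 target gene, was at 1255 CPM in homozygous and 716 CPM in heterozygous alpha cells, a ratio of 1.75 (1.66 to 1.86). Its ratio was also above 1 in delta cells (1.54, 1.28 to 1.88) and stellate cells (1.60, 1.04 to 2.54), but was 1.01 (0.937 to 1.08) in beta and 0.945 (0.777 to 1.15) in endothelial cells. Rpl32 followed at 4171 and 3211 CPM, a ratio of 1.30, and Rpl4, which lines the peptide exit tunnel, at 3139 and 2457 CPM, a ratio of 1.28. Rpl37a, Rps14 and Rpl41, the smallest ribosomal protein, had ratios of 1.16, 1.13 and 1.12. At the low end Rps16 was at 220 CPM in homozygous and 418 CPM in heterozygous alpha cells, a ratio of 0.525 (0.484 to 0.570). Rps12, Rpl9, Rps24, Rpl30 and Rpl35a had ratios between 0.550 and 0.595. Of these 6, Rps12 has 15 near-identical copies, Rpl30 and Rpl35a have 10 each and Rpl9 has 8, so their values are uncertain. Rpl38 was below 1 in alpha (0.631), beta (0.569), delta (0.666) and endothelial cells (0.412), and in stellate cells its interval reached 1 (0.575, 0.332 to 1.01).

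**Figure D3:**
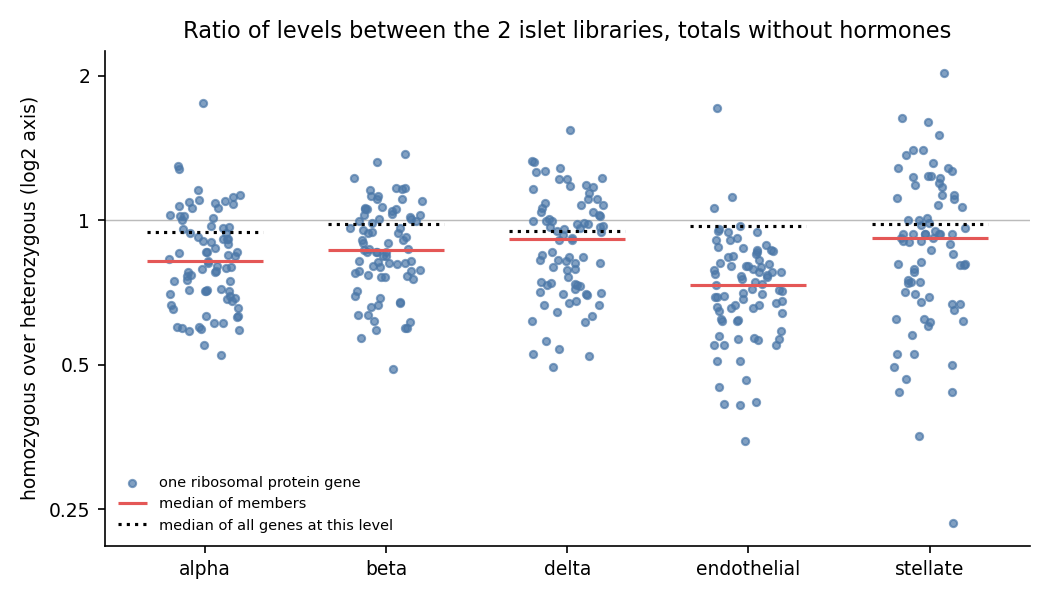
Ratio of each member's level in the homozygous over the heterozygous islet library by cell type (log2 axis, totals without hormones, members with at least 50 CPM in 1 genotype), with the members' median as a red line and the median of all genes at that level as a dotted line. The members' median lies below that of all genes in each of the 5 types, with the widest gap in endothelial cells (0.734 against 0.971).

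Tumor cells and islet alpha cells did not differ in their pooled ribosomal protein share beyond the spread between libraries. The share was 5.72%, 4.53% and 3.65% in tumors A, B and C (mean 4.63% ± 1.03, SD, n = 3) and 4.15% and 3.37% in the 2 islet libraries (mean 3.76%). An exact two-sided permutation test gave p = 0.4, where 3 against 2 libraries cannot give less than 0.1. Without hormones the tumors were at 9.07%, 6.43% and 5.36% and the islets at 7.30% and 6.76%, and the mean difference turned from 0.871 to -0.0775 percentage points (exact permutation p = 1.0). Tumor A was thus above and tumors B and C below both islet values on this scale. Islets and tumors were deposited in separate tables, so tissue and table cannot be told apart in this comparison. The islet side joined 1 heterozygous and 1 homozygous library, whereas all tumors were homozygous. Spread between the islet libraries therefore includes any genotype difference. Tumors A and B also differed from tumor C and both islets in Xist and Y-linked transcripts, given under the other observations.

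Gene by gene, limma on log2(CPM + 1) called 0 of 83 members at a Benjamini-Hochberg adjusted p under 0.05, where 2.14% of 10127 genes tested were called higher and 0.109% lower in tumors. The other 2 members, Rpl3l and Rpl39l, did not reach 5 CPM in 2 libraries. The edgeR test also called 0, with 3 higher at an unadjusted p under 0.05, where 1769 of 10127 genes passed either way. DESeq2 called 4 higher (among them Rpl38, Rps29 and Rps28), where it called 3.88% of genes higher. At an unadjusted p under 0.05, limma had 8 of 83 members higher and 0 lower, where 2288 of 10127 genes passed either way. The median change of the 83 members was 0.14 on the log2 scale, against 0.28 for all genes tested; 25 members lay above that overall median and 58 below it. The members' median was above that of all genes when genes of any level were tested (0.14 against 0.07) and without tumor C (0.29 against 0.26). It turned negative without tumor A (-0.16 against 0.29 for all genes) and without the homozygous islet (-0.11 against 0.12), and was 0.35 against 0.46 without the heterozygous islet. With totals without hormones these medians were -0.18 and -0.04, so the members' median turned sign while staying below that of all genes.

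Rpl38 had the largest rise of the 83 in the fitted log2 change; the largest change of either sign was that of Rps4l, described with the paralogs. It was at 580.3 CPM in heterozygous and 321 CPM in homozygous islet alpha cells, and at 1793, 1116 and 1116 CPM in tumors A, B and C. All tumor values lay above both islet values; the log2 change was 1.60 (SE 0.37), or 1.32 above the median of all genes, with a limma adjusted p of 0.069. Rps28, a small protein near the mRNA exit channel, was at 77.4 and 72.0 CPM in the islets and at 389, 196 and 138 CPM in the tumors. Its groups did not overlap either, but tumor A stood well above the other tumors (log2 change 1.54, SE 0.41, limma adjusted p = 0.092). Rps29, also of the small subunit, was at 152 and 94.9 CPM in the islets and at 401, 253 and 243 CPM in the tumors (log2 change 1.27, SE 0.33, limma adjusted p = 0.086). Rplp0 was at 261 and 197 CPM in the islets and at 493, 364 and 414 CPM in the tumors, and has no near-identical copy. Rpl14, of the large subunit, was at 1167 and 729 CPM in the islets and at 1898, 1715 and 1319 CPM in the tumors (log2 change 0.82, SE 0.34, limma adjusted p = 0.21). Rpl39 and Rps27l were also among the 8, and in each of the 8 the tumors lay above both islets. Rpl38 has 3 copies, Rps29 has 4 and Rps28 has 1.

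Tumors were higher than both islets without overlap for 13 of 83 members, where 35.6% of all genes tested showed this pattern, and lower for 0, against 4.91% of genes. With totals without hormones the pattern held for 6 members (among them Rpl38, Rplp0, Rps29 and Rps28), against 18.3% of genes. On that scale 5 members were lower in each tumor than in either islet (Rps19, Rpl8, Rps3, Rpl17 and Rpl15), against 18.9% of genes. Both shares of members were below those of all genes.

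**Figure D4:**
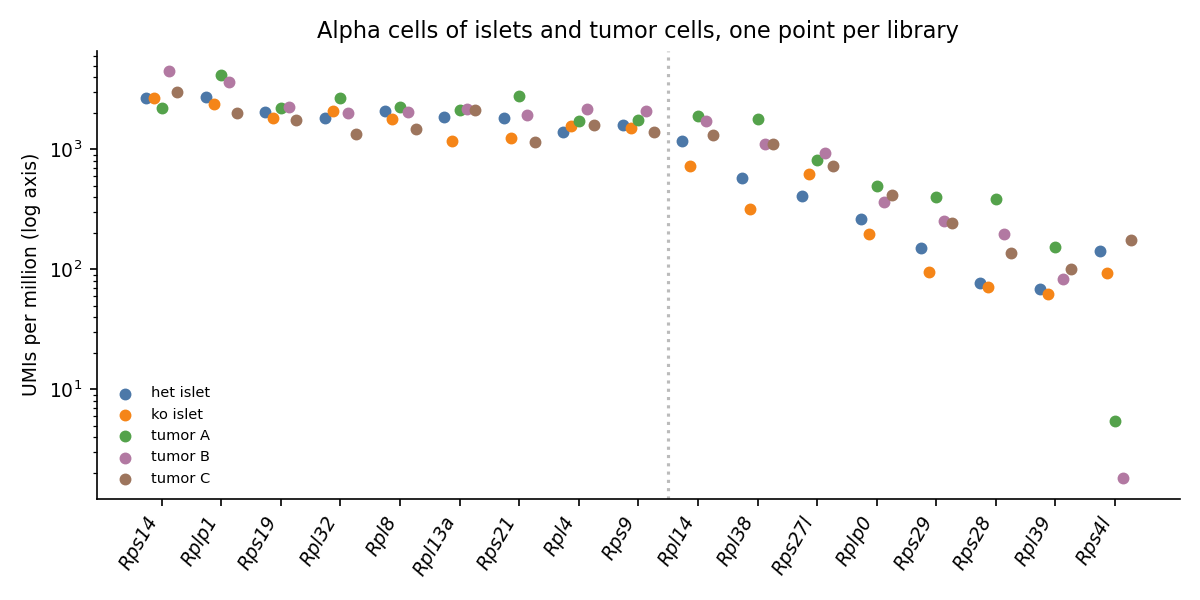
Level of selected members (CPM, log axis) in alpha cells of the 2 islet libraries and in the 3 tumor libraries, 1 point for each library; left of the dotted line are 9 of the 10 members with the highest average, right of it 7 of the 8 members with an unadjusted p under 0.05 in tumors against islets and Rps4l. Rpl38, Rps29 and Rps28 show all 3 tumors above both islets, and Rps4l lies near 142, 92.6 and 177 CPM in 3 libraries but at 5.45 and 1.81 CPM in tumors A and B.

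The machinery around the ribosome was read from 4 gene lists. Of 29 tested ribosome biogenesis genes, 4 rose in tumors and 0 fell by limma, where 2.14% of all genes rose and 0.109% fell, with a list median of 0.56 against 0.28 for all genes tested. Gnl3, a nucleolar GTPase, was at 29.5 and 30.01 CPM in the islets and at 72.3, 94.9 and 84.8 CPM in the tumors (log2 change 1.46, SE 0.23, limma adjusted p = 0.026). Nolc1, a nucleolar chaperone of box C/D and H/ACA particles, was at 19.0 and 17.5 CPM in the islets and at 41.8, 56.8 and 54.4 CPM in the tumors (log2 change 1.43, limma adjusted p = 0.031). Nop58, of the box C/D particle, and Tsr1, a small-subunit assembly factor, were the other two, at log2 changes of 1.29 and 1.36. Of 16 tested genes of translation control, 1 rose: Larp1 was at 39.5, 37.9 and 33.3 CPM in the tumors against 12.1 and 18.01 CPM in the islets (log2 change 1.26, limma adjusted p = 0.049). None of 19 other TOP transcripts, such as elongation factors, and none of 4 ribosomal proteins with other names were called, with medians of 0.07 and 0.10. With totals without hormones, with TMM or without any 1 library, limma called 0 of these 29 biogenesis and 16 control genes, edgeR also called 0, and so did limma when genes of any level were tested. DESeq2 called 5 biogenesis genes (Nop2 in addition) and 0 control genes. The biogenesis median stayed above that of all genes (0.26 against -0.04 with totals without hormones).

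Among the tumors, members were mostly highest in tumor A. With totals without hormones, 74 of 83 tested members were highest in tumor A, 5 in tumor B and 4 in tumor C, where tumor A was highest for 43.8% of all genes tested. Tumor C was lowest for 44 members and tumor B for 36, where tumor C was lowest for 28.9% and tumor B for 45.7% of all genes. The middle 50% of single cells ran from 7.61% to 10.2% in tumor A, from 5.45% to 7.26% in tumor B and from 4.44% to 5.98% in tumor C. The range of tumor A did not overlap those of the other tumors. The authors' 4 tumor clusters nearly matched the libraries, with clusters 2 and 4 both in tumor C at 5.27% and 5.50%. Rps14 went against the order, at 2217 CPM in tumor A and 4493 CPM in tumor B. Mitochondrially encoded genes took 1.45%, 1.27% and 2.19% of UMIs in tumors A, B and C.

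Slc38a5, an amino acid transporter of alpha cells that multiply when glucagon signaling is blocked, divided the alpha-like cells into positive and negative after each cell was thinned to 5000 UMIs. No ribosomal protein gene was called between these classes. Few genes of any kind were called, so this cannot show that the members were alike. With the library as a block, limma called 0 of 83 members, where it called 0.055% of 10914 genes higher and 0.0275% lower in positive cells. At an unadjusted p under 0.05, limma had 1 member higher (Rpl41) and 0 lower, where 1249 of 10914 genes passed either way. With totals without hormones, limma had 0 of 83 higher and 14 lower at that level, where 766 of 10906 genes passed either way. edgeR and DESeq2 also called 0 members, with 5 and 4 lower at an unadjusted p under 0.05. At that level 984 of 10914 genes passed either way in edgeR and 457 in DESeq2. The members' median change was 0.01 against 0.11 for all genes, with 72 of 83 below that overall median. In all 5 libraries at once, 8 of 83 members lay below the median of all genes, against 4.2% of genes. Above it in all 5 were 0 members, against 4.21% of genes. Counted singly, 34 of 83 lay below it in the heterozygous islet (49 above) and 47 in the homozygous islet. In tumors A, B and C, 80, 45 and 64 lay below it. Without hormones, the pooled share in positive and negative cells was 7.35% and 7.28% in the heterozygous islet, 6.59% and 7.30% in the homozygous islet, 8.94% and 10.7% in tumor A, 6.43% and 6.36% in tumor B, and 5.35% and 5.75% in tumor C. Positive cells were lower in 3 libraries and higher in 2. Tumor B had the fewest negative cells, 20, and the classes of the other libraries held at least 44. Hormones took less of the UMIs in positive than in negative cells of each library, from 43.4% against 43.5% in the heterozygous islet to 47.7% against 56.3% in the homozygous islet.

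Within the tumors, 136 cycling cells were set against 2253 others, and here 1 member rose and 1 fell. A cell counted as cycling when at least 2 of 11 mitotic genes, such as Mki67 and Top2a, had a UMI after thinning to 5000 UMIs. Limma with the library as a block called 10.4% of 10875 genes higher and 1.66% lower in cycling cells. Rps27l was at 1280 CPM in cycling and 794 CPM in other cells of tumor A, at 1493 and 908 CPM in tumor B, and at 1059 and 707 CPM in tumor C. It was higher in cycling cells of all 3 tumors, by 0.66 on the log2 scale (SE 0.08, 0.58 above the median of all genes, limma adjusted p = 1.7e-05). Rpl38 was at 1371 CPM in cycling and 1823 CPM in other cells of tumor A, at 883 and 1126 CPM in tumor B, and at 993 and 1125 CPM in tumor C. It was lower in cycling cells of all 3 tumors, by a log2 change of -0.31 (SE 0.08, limma adjusted p = 0.016). Without tumor A this call was lost (limma adjusted p = 0.11), and it was also lost when genes of any level were tested (limma adjusted p = 0.27).

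Rps27, the parent gene of Rps27l, went the other way: 354 CPM in cycling and 462 CPM in other cells of tumor A, 169 and 198 CPM in tumor B, and 139 and 175 CPM in tumor C. The change was -0.31 on the log2 scale and did not pass the test (limma adjusted p = 0.057). It passed under 6 of 15 alternatives, among them totals without hormones (limma adjusted p = 0.015), edgeR and DESeq2. How many members fell depended on scaling: 5 with TMM, where 4.1% of genes fell, and 6 in edgeR, where 4.86% fell. With totals without hormones, limma called 3 of 83 members lower, where 316 of 10868 genes fell. The 6 in edgeR were Rpl38, Rps27, Rps14, Rpl10, Rpl36 and Rpl26. Rps19 was at 2534 CPM in cycling and 2186 CPM in other cells of tumor A, at 2612 and 2248 CPM in tumor B, and at 2028 and 1734 CPM in tumor C. Although higher in cycling cells of all 3 tumors, Rps19 missed the threshold (limma adjusted p = 0.061). The median change of the 83 members was -0.01, against 0.08 for all genes. In all 3 tumors, 34 of 83 lay below the median of all genes and 5 above it, against 21.6% and 22.9% of genes. In tumor A alone 77 of 83 lay below that median, in tumor B 39 and in tumor C 60. Hormones took less of the UMIs in cycling than in other cells: 31.8% and 37.3% in tumor A, 26.9% and 29.6% in tumor B, and 26.9% and 32.2% in tumor C. Without hormones, the pooled member share in cycling and other cells was 8.18% and 9.15% in tumor A, 6.41% and 6.43% in tumor B, and 5.25% and 5.37% in tumor C. Limma called 3 of 30 biogenesis genes higher (Nop58, Nop10 and Gar1), 2 of 19 other TOP transcripts (Nap1l1 and Eif3l) and 1 of 16 translation control genes (Eif4g2), counts near or below the 10.4% of all genes called higher. TMM, edgeR and DESeq2 called 0 biogenesis genes, and TMM and edgeR called the TOP transcripts Eef2 and Eif4b lower. With totals without hormones it called 0 biogenesis and 0 control genes, and Nap1l1 and Eif3l were still called.

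**Figure D5:**
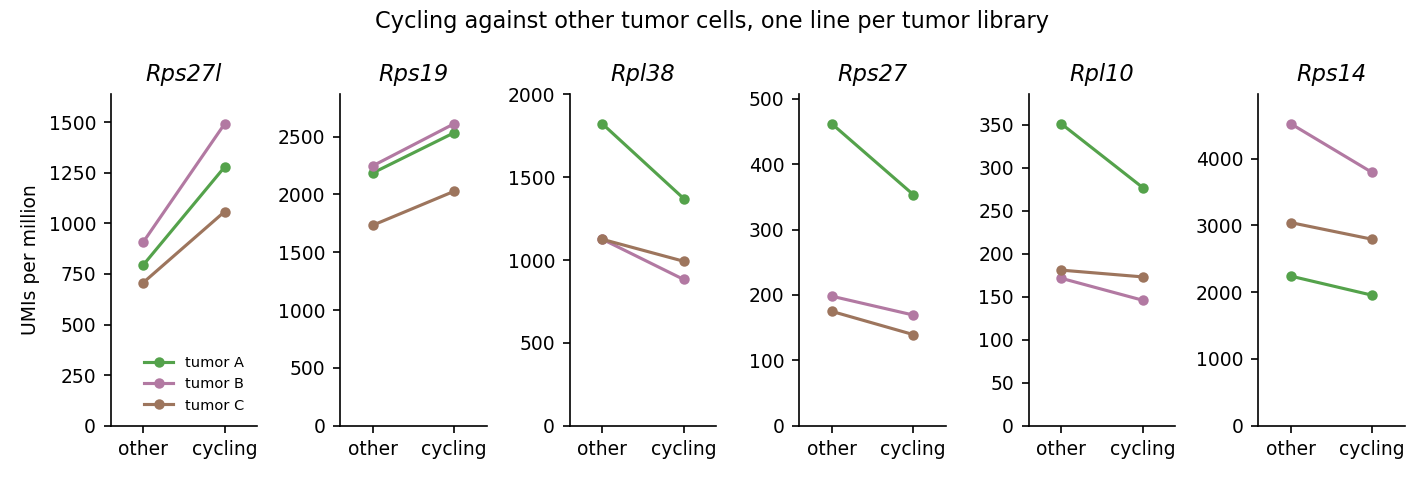
Level (CPM) of 6 members in other and in cycling cells, 1 line for each tumor library, with vertical axes that start at 0. Rps27l rises in all 3 tumors, from 794 to 1280 CPM in tumor A, and Rpl38 falls in all 3; Rps19, Rps27, Rpl10 and Rps14 did not pass the limma test.

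The paralogs together took 1.67% of member UMIs in heterozygous and 2.37% in homozygous islet alpha cells, and 1.78%, 2.31% and 3.04% in tumors A, B and C. Rps27l was the main paralog, at 407 and 626 CPM in the islets and at 821, 932 and 733 CPM in the tumors, above Rps27 in each library. Rpl22l1, the paralog of Rpl22, was at 80.5 and 42.5 CPM in the islets and at 118, 62.1 and 154 CPM in the tumors, while Rpl22 was at 549.8 and 464 CPM and at 732, 662 and 521 CPM. The groups overlapped for both Rpl22l1 and Rpl22. Rpl7l1 stayed between 21.6 and 31.2 CPM, Rps12l2, which RefSeq annotates as a pseudogene (Rps12-ps24), between 8.91 and 37.0 CPM, and Rpl10l, whose known site is the testis, between 2.92 and 7.14 CPM. Rpl39l, also known from male germ cells, was at most 2.78 CPM, and Rpl3l, the heart and skeletal muscle form of Rpl3, at most 0.397 CPM.

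Rps4l (GRCm38.p6 chr6:148354656-148355596, annotated by RefSeq as a transcribed pseudogene) had the widest spread between libraries. It was at 141 CPM in heterozygous and 92.6 CPM in homozygous islet alpha cells and at 177 CPM in tumor C, but at 5.45 CPM in tumor A and 1.81 CPM in tumor B. At least 1 UMI was found in 84.5% of tumor C cells, 9.90% of tumor A cells and 4.73% of tumor B cells, whose median depths were 19379, 19867 and 26092 UMIs. In macrophages of the heterozygous islet library 6.82% of 44 cells had a UMI, at a median depth of 3828 UMIs. Its parent gene Rps4x was at 367 and 196 CPM in the islets, 398 CPM in tumor A and 177 CPM in tumor C, an order unlike that of Rps4l. Between tumors and islets the change of Rps4l did not pass the test (log2 change -2.97, SE 1.47, limma adjusted p = 0.28); without tumor C it was -4.76 (limma adjusted p = 0.0041).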

How the data were processed

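The authors deposited 3 tables of signal, UMIs of each cell scaled to a common total, with a column of UMI counts per cell, per the file headers. The submitters' processing notes name CASAVA 1.8, bcl2fastq 2.17, GSNAP and GRCm38. Whole UMIs were recovered by reversing the scaling (100% of values whole within 0.01). Scrublet (scanpy 1.11.5) marked 51 doublets, which were removed. UMIs were summed per library and class and tested with limma 3.58.1 (R 4.3.3) on log2(CPM + 1). Genes with 5 CPM in 2 sums were tested, with Benjamini-Hochberg adjustment over all genes tested. The fits were tried on simulated data with planted changes, in which all libraries otherwise shared the same mean levels. Library-wide differences such as those of tumor A were not simulated. The genes that define a class were left out of its fit, and classes of cells from the same library were paired by a block for the library. edgeR 4.0.16, DESeq2 1.42.0 and other settings were alternatives. Samples with 1 library per group were compared by ratios with 95% intervals. P-values for tumors against islets measure the spread between libraries only. In the fits with a library block they measure how the difference between classes varied from library to library.

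The members and lists were chosen with earlier results of these data known. Named were the 10 members with the highest average, every member called by limma, the paralogs, the 6 highest and 6 lowest alpha ratios, the 5 widest ranges over cell types in the same order in both islets (levels and ranges here without hormones), and up to 4 called genes of a list. Others (among them Rps28, Rps29, Rplp0, Rps27 and Rps19) were chosen after their values were seen. The single values of some members are not reported here; counts and pooled shares include every member.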

Additional observations from a re-analysis of the deposited data

How the results depend on the processing

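Between tumors and islet alpha cells, no member was called under 15 of 17 alternatives. DESeq2 called 4 members higher, and leaving out a library called 0 to 1 lower (Rps4l, without tumor C). In the Slc38a5 comparison all 17 alternatives gave 0 members either way. In the cycling comparison the count of members higher was 1 except for 2 with means over cells by the authors' totals and 0 with no replicate block; leaving out a tumor gave 1. The count lower was 0 without a filter, 2 with a filter of 20 CPM, 3 with totals without hormones, 5 with TMM, 6 in edgeR, 3 in DESeq2, 0 with no replicate block, and 0 to 2 when a tumor was left out. Over all genes, 191 of 5884 were lower with a filter of 20 CPM and 316 of 10868 with totals without hormones. TMM, edgeR and DESeq2 had 446, 528 and 162 of 10875 genes lower. Without tumor B, where 2 members were lower, 145 of 10502 genes were. The tumor minus islet difference in pooled share kept its sign under 11 of 12 alternatives and turned to -0.0775 with totals without hormones; leaving out a library gave 0.330 to 1.36. The alpha ratio of homozygous over heterozygous was 0.927 with totals without hormones, 0.806 with means over cells, and 0.728 without the 10 highest members. Alpha members above 1 numbered 3 with all UMIs and 10 without hormones, an alternative chosen after seeing the data. The causes were not tested. No paired analysis was possible for tumors against islets because the labels give no number shared by these groups. Depth limits the stellate class, with 90008 UMIs in the heterozygous library.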

Other observations

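The library pattern of Rps4l was looked for in all genes after its values were seen. Besides Rps4l, 5 genes had at least 20 CPM in both islet alpha libraries and in tumor C and at most a 10th of the lowest of these in tumors A and B: the hormone genes Ins1, Ins2 and Sst and the Y-linked genes Ddx3y and Eif2s3y. Ddx3y was at 46.0 and 37.2 CPM in the islets and 68.4 CPM in tumor C, and at 0.397 and 0.398 CPM in tumors A and B. With the pattern turned round, 1 gene was found: Xist, the transcript of the inactive X chromosome, at 1465 and 1730 CPM in tumors A and B and at 0.135 to 1.24 CPM in the other libraries. Rps4l lies on chromosome 6, and whether its level follows sex or the library was not tested, since the labels used here do not state sex.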
